A study of Rattus norvegicus with 6 samples.

Results

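Purinergic and adenosine receptors are the cell surface proteins through which extracellular nucleotides and adenosine act, and the expression of 9 genes of this group was described in the mural cells of the rat brain cortex. The 9 genes (P2rx1, P2rx4, P2ry1, P2ry2, P2ry6, P2ry14, Adora1, Adora2a and Adora2b) were chosen by symbol, and 7 of them were found among the 14607 genes of the deposited table, whereas P2ry1 and Adora1 had no row. RNA-Seq compared vascular smooth muscle cells (VSMCs), the contractile cells of arterioles, with mid-capillary pericytes (mcPCs), the mural cells of the capillary bed. Both came from the brain cortex of male Sprague-Dawley rats of 4 to 5 weeks with no treatment, and each cell type had 3 samples that share the isolation names DN, DL and DK. According to the study's methods, several rats were pooled for each isolation. VSMCs were sorted positively, with a fluorescent lectin, from arterioles retained on a filter after removal of endothelial and microglial cells. mcPCs were what was left of the filtrate once endothelial cells, microglia, astrocytes and oligodendrocytes had been removed, so that any cell without those labels could remain with them. The expression values of the table are means of each cell type, and the authors' own comparison was not used. No SD, test or p-value therefore accompanies the values, and the folds below describe 2 means.

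ATP, ADP, UTP, UDP and UDP-glucose leave cells through channels and vesicles and act on neighbouring cells. P2X receptors are cation channels opened by ATP. P2Y receptors are G protein-coupled, with P2ry1, P2ry2 and P2ry6 acting through Gq, which raises intracellular calcium, and P2ry14 acting through Gi, which lowers cyclic AMP. Ectonucleotidases on the cell surface degrade ATP to adenosine, whose receptors lower cyclic AMP (Adora1) or raise it through Gs (Adora2a and Adora2b). In arteries, ATP acting on smooth muscle P2X channels and UTP or UDP acting on Gq-coupled P2Y receptors are known to constrict, whereas adenosine acting on Gs-coupled receptors is known to dilate.

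Reads assigned to genes, computed from the mean counts, came to 62.0 M (M, 1e6) in a VSMC sample and 48.0 M in a mcPC sample. At least 2-fold higher in VSMCs were 6 of 6 smooth muscle markers (13.9% of all genes). At least 2-fold higher in mcPCs were 5 of 5 capillary pericyte markers (22.0% of all genes). The paper names several of these markers as specific to 1 cell type from these same data, so the counts are a description and no independent check of the labels. Erythrocyte transcripts took 54.9% of the TPM (abundance per transcript length, scaled to the same total in every sample) of mcPCs and 0.728% of that of VSMCs. The median abundance over all genes was 3.59 TPM in mcPCs and 12.7 TPM in VSMCs, and a TPM value cannot be set directly against that of the other cell type. The log2 ratios below are therefore those of the authors' mean normalized counts, mcPC over VSMC, whose median over all genes was 0.014. The 95% interval beside a ratio is an exact interval for the reads of the 3 samples together. It covers counting error only and not the spread between isolations. As in any bulk sample, fewer cells that express a gene and less RNA per cell cannot be told apart.

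The sequences upstream of 4 of the genes are shown because these genes have the largest folds of the group or stand for the genes that were higher in one cell type, P2rx1 and P2ry2 in VSMCs and P2ry14 and Adora2b in mcPCs. They are the 250 bases before the annotated start in RefSeq, build GRCr8, where 7 of the 9 genes had an entry and Adora2a and P2ry6 had none. Capitals mark matches, on either strand, to CANNTG (the E-box), GGGCGG (the GC box bound by Sp1), TGGGAA (the core bound by RBPJ, which acts in Notch signalling), TATAAA and the CArG box bound by serum response factor.
P2rx1: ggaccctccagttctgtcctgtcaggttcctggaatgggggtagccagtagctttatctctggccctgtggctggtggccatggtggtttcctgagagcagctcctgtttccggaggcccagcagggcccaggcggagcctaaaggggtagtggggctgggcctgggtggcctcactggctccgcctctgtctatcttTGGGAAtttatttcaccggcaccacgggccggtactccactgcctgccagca
P2ry2: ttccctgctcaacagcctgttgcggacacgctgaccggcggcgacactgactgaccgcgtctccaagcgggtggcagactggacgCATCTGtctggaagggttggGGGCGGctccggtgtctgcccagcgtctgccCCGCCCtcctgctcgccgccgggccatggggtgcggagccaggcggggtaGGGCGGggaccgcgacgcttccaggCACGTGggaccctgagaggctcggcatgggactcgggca
P2ry14: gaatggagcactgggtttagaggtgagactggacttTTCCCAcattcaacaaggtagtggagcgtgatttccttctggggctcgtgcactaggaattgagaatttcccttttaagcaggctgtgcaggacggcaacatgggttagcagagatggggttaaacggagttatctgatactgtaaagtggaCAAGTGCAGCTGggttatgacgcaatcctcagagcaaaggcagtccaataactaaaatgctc
Adora2b: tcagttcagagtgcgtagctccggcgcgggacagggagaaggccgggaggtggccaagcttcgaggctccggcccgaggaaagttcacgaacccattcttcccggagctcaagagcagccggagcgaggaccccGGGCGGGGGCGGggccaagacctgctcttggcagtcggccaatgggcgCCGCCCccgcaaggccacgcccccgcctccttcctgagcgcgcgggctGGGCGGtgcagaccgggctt
The P2rx1 sequence lies at chr10:58116857-58117106 on the plus strand, P2ry2 at chr1:164779489-164779738 on the minus strand, P2ry14 at chr2:145538511-145538760 on the minus strand and Adora2b at chr10:47439462-47439711 on the plus strand. GC content was 47.6% for P2ry14, 62.0% for P2rx1 and 71.2% for both P2ry2 and Adora2b, against a median of 51.2% over all 33469 promoters. P2ry2 held 3 and Adora2b held 4 matches to GGGCGG, which was found in 30.5% of promoters, and the other sequences held none. TGGGAA, present in 22.1% of promoters, occurred once in P2rx1 and once in P2ry14. E-boxes, present in 65.5% of promoters, occurred 2 times in P2ry2 and 2 times in P2ry14, where they stand side by side without overlap. None of the 4 windows held TATAAA (12.9% of promoters) or a CArG box (1.5%). The pair of genes higher in the same cell type shared no motif in these windows, and P2ry14 has 10 RefSeq transcripts, of which the window describes a single start.

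In VSMCs the most abundant receptor transcript was P2rx1 (116 TPM), followed by Adora2a (88.3 TPM). P2ry14 (20.1 TPM), P2ry2 (16.9 TPM), Adora2b (11.2 TPM), P2rx4 (10.3 TPM) and P2ry6 (3.13 TPM) came after them. The order was another in mcPCs, led by P2ry14 (145 TPM) and Adora2a (75.0 TPM) and followed by Adora2b (12.4 TPM), P2rx4 (5.64 TPM), P2ry2 (1.06 TPM), P2rx1 (0.445 TPM) and P2ry6 (0.186 TPM). Adora2a was the second gene and P2ry6 the last gene of both lists, while P2rx1 went from the first place to the sixth and P2ry14 from the third to the first. No neighbours in either order had overlapping counting intervals. The closest were Adora2b and P2rx4 in VSMCs, 1.09-fold apart in TPM. Whether such small differences exceed the spread between isolations cannot be told from means.

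**Figure D1:**
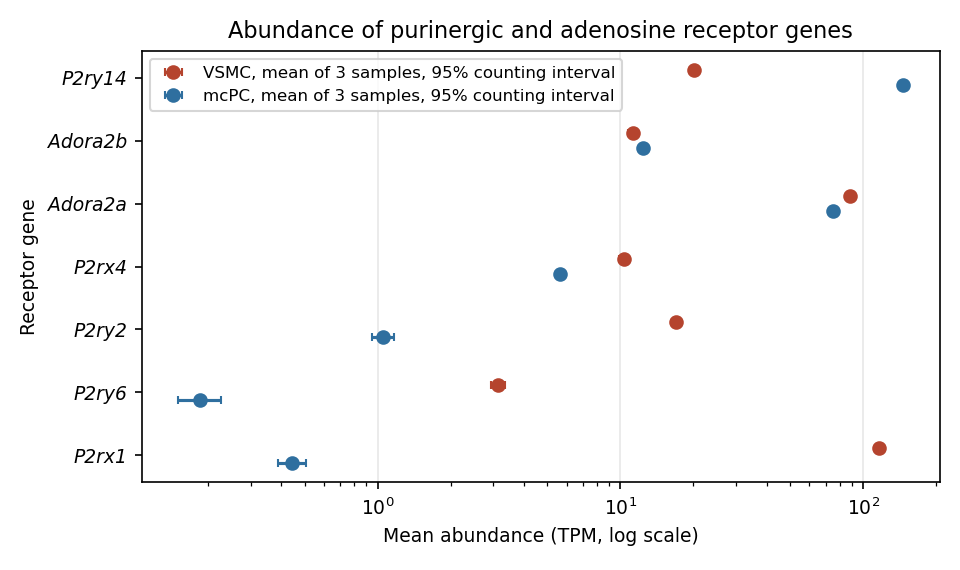
Mean abundance (TPM, log axis) of the 7 listed receptor genes in VSMCs (red) and mcPCs (blue), with bars for the 95% counting interval, which is narrower than the symbol for most genes. P2rx1 lies at 116 TPM in VSMCs and 0.445 TPM in mcPCs, P2ry14 lies at 20.1 and 145 TPM, and Adora2a and Adora2b lie close together in TPM, a scale on which the median gene is lower in mcPCs.

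P2rx1 (ENSRNOG00000017606), which encodes the ATP-gated channel known for the fast contraction of arteries to sympathetic ATP, had the lowest mcPC over VSMC ratio of the group. Its mean normalized count was 7699 in VSMCs and 99.4 in mcPCs, a log2 ratio of -6.28 (95% counting interval -6.47 to -6.08) or a level 77.4-fold higher in VSMCs. In reads, this was 10859 per VSMC sample and 73.3 per mcPC sample. P2rx1 was more abundant than 91.1% of listed genes in VSMCs but than only 15.2% in mcPCs. Its TPM in mcPCs was 0.382% of that in VSMCs, and the summed TPM of the 6 smooth muscle markers, of which 81.7 TPM was found in mcPCs against 44815 TPM in VSMCs, was 0.182%. The single markers ranged widely in log2 ratio of normalized counts. Smtn (-2.48) and Des (-5.33) lay above P2rx1, whereas Acta2 (-7.99), Tagln (-8.02), Cnn1 (-8.19) and Myh11 (-8.35) lay below it. The part of remaining smooth muscle RNA in the P2rx1 reads of mcPCs was not tested. Platelets also carry P2rx1, and 3 of 9 platelet markers were listed, Itgb3 (5.78 TPM in VSMCs and 3.97 in mcPCs), Itga2b (0.234 and 0.258) and Gp1ba (0.478 and 0.0879), summing to 6.49 TPM in VSMCs and 4.32 in mcPCs. Pf4, Ppbp, Gp1bb, Gp9, Gp6 and Treml1 had no row, and the part of platelet RNA was not tested.

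P2rx4 (ENSRNOG00000001300), a slowly desensitizing P2X channel found in many cell types, had the same mean number of reads in both cell types, 740.7 per sample. Its mean normalized count was 526 in VSMCs and 1020 in mcPCs. The log2 ratio was 0.95 (95% counting interval 0.87 to 1.04), a level 1.94-fold higher in mcPCs and thus just under the 2-fold limit. On the TPM scale it was lower in mcPCs, 5.64 against 10.3 TPM, so the direction for P2rx4 depended on the scale between cell types. Within a cell type no such scale enters. P2rx1 was 11.3-fold as abundant as P2rx4 in VSMCs, whereas in mcPCs P2rx4 was 12.7-fold as abundant as P2rx1. The P2X transcript that led in arteriolar cells was therefore the minor one of the pair in capillary cells.

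P2ry14 (ENSRNOG00000013872), which encodes the Gi-coupled receptor for UDP-glucose and UDP, had the highest mcPC over VSMC ratio of the group. Its mean normalized count was 882 in VSMCs and 22926 in mcPCs, a log2 ratio of 4.70 (95% counting interval 4.65 to 4.75) or a level 26.0-fold higher in mcPCs. Reads numbered 1243 per VSMC sample and 16565 per mcPC sample. P2ry14 was more abundant than 98.3% of listed genes in mcPCs and than 60.5% in VSMCs, where it was still the third of the receptors. Its TPM in VSMCs was 13.8% of that in mcPCs, and the summed TPM of the 5 capillary pericyte markers, 520 TPM in VSMCs and 2487 TPM in mcPCs, was 20.9%. Vtn held most of that sum in VSMCs, with 484 TPM against 1531 TPM in mcPCs (31.6%), and the other 4 markers summed to 35.8 TPM in VSMCs and 956 TPM in mcPCs (3.74%). The part of pericyte RNA in the P2ry14 reads of VSMCs was not tested. Leukocytes also express P2ry14, and 3 of 8 neutrophil and leukocyte markers were listed, with a summed TPM of 1.24 in VSMCs and 24.3 in mcPCs, where most of it came from Ptprc, the pan-leukocyte antigen CD45 (0.0659 TPM in VSMCs and 15.1 TPM in mcPCs). The other listed ones were S100a9, of neutrophils (0.742 and 8.45 TPM), and Csf3r (0.437 and 0.750 TPM), and S100a8, Mpo, Cxcr2, Cd3e and Cd79a had no row. The part of leukocyte RNA in the mcPC values was not tested.

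Both Gq-coupled P2Y receptors with a row were higher in VSMCs. P2ry2 (ENSRNOG00000019283), a receptor for ATP and UTP, had a mean normalized count of 751 in VSMCs and 164 in mcPCs, with 1054 and 121.6 reads per sample. Its log2 ratio was -2.20 (95% counting interval -2.36 to -2.04), a level 4.59-fold higher in VSMCs. P2ry6 (ENSRNOG00000019270), the UDP receptor, had a mean normalized count of 204 in VSMCs and 40.6 in mcPCs. Its log2 ratio was -2.33 (95% counting interval -2.65 to -2.03), a level 5.03-fold higher in VSMCs, but it rested on only 290 and 32.4 reads per sample. The counting intervals of the P2ry2 and P2ry6 ratios overlap. In TPM, P2ry6 was more abundant than 28.3% of listed genes in VSMCs and than 8.37% in mcPCs, the lowest position of the group in both. Microglia express P2ry6 too, and 5 of 12 microglia and macrophage markers were listed, with a summed TPM of 0.683 in VSMCs and 9.45 in mcPCs. The part of microglial RNA in the P2ry6 values was not tested.

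Among adenosine receptors, both Gs-coupled genes had a row, and both were at least 2-fold higher in mcPCs in normalized counts. Adora2a (ENSRNOG00000001302), the high affinity dilator receptor, had a mean normalized count of 5819 in VSMCs and 17598 in mcPCs, with 8128 and 12745 reads per sample. Its log2 ratio was 1.60 (95% counting interval 1.57 to 1.62), a level 3.02-fold higher in mcPCs. Adora2b (ENSRNOG00000002922), the low affinity receptor, had a mean normalized count of 534 in VSMCs and 2092 in mcPCs, with 753 and 1521 reads per sample. The log2 ratio of Adora2b was 1.97 (95% counting interval 1.90 to 2.04), a level 3.92-fold higher in mcPCs. In plain TPM, Adora2a was slightly lower in mcPCs (75.0 against 88.3 TPM) and Adora2b slightly higher (12.4 against 11.2 TPM), while the median log2 ratio of all genes on that scale was -1.72. Relative to the other genes of the same cell type, Adora2a was above 88.2% of them in VSMCs and 96.9% in mcPCs, and Adora2b above 47.2% and 80.0%. Adora2a was 7.87-fold as abundant as Adora2b in VSMCs and 6.07-fold in mcPCs, so the balance of the pair was of similar size in both. The paper describes the mcPCs as slightly contaminated by erythrocytes and endothelial cells. Of 6 listed endothelial markers, 5 were at least 2-fold higher in mcPCs (22.0% of all genes). Cldn5 was at 0.643 TPM in VSMCs and 15.4 TPM in mcPCs, whereas Flt1 was at 8.20 and 1.41 TPM. The listed neutrophil and leukocyte markers summed to 1.24 TPM in VSMCs and 24.3 TPM in mcPCs. The listed neuron markers summed to 0.823 and 19.9 TPM, mostly from Tubb3 in mcPCs (15.7 TPM). The part of other cells' RNA in the values of Adora2a, Adora2b and P2rx4 was not tested.

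P2ry1, the ADP receptor, and Adora1, the Gi-coupled adenosine receptor, had no row. The table keeps a gene only where each sample had reads for it. The absence of a row therefore does not show that a gene was silent in VSMCs or in mcPCs, since a single sample without a read, or a transcript missing from the cDNA set, would have the same effect. These cases cannot be told apart, and no level is given for either gene.

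Of the 7 listed genes, 3 were at least 2-fold higher in VSMCs (P2rx1, P2ry2 and P2ry6), while 13.9% of all 14607 genes were. Another 3 were at least 2-fold higher in mcPCs (P2ry14, Adora2a and Adora2b), while 22.0% of all genes were, and P2rx4 lay between. With 7 genes, each of these counts is a description. The median log2 ratio of the 7 genes was 0.95 and that of all genes 0.014. In normalized counts, the genes higher in VSMCs encode an ATP-gated channel and Gq-coupled receptors, and those higher in mcPCs encode Gi-coupled P2ry14 and Gs-coupled receptors. The other ATP-gated channel, P2rx4, was in neither group, and Gq-coupled P2ry1 and Gi-coupled Adora1 had no row.

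**Figure D2:**
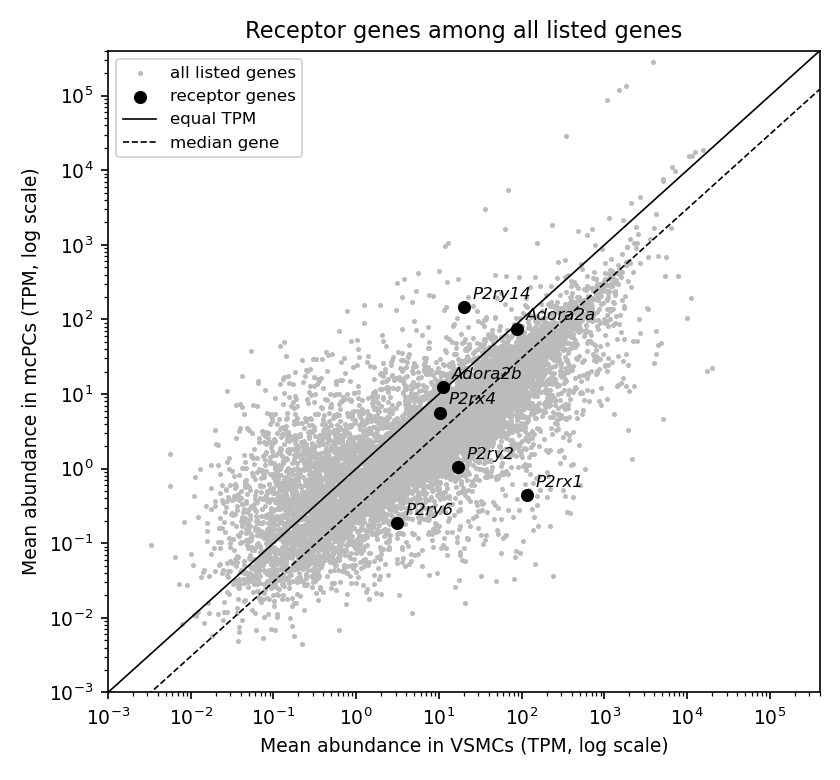
Mean abundance of each of the 14607 listed genes in VSMCs (x axis) and mcPCs (y axis), both in TPM on log axes, with the 7 receptor genes in black. The solid line marks equal TPM and the dashed line the median gene (log2 ratio -1.72). P2ry14 lies far above both lines, P2rx1 far below both, Adora2a and Adora2b lie near the solid line and above the dashed one, and P2ry2 and P2ry6 lie below both.

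The composition of the receptor transcripts was compared within each cell type, where scaling between the cell types has no part. The summed TPM of the 7 genes was 266.4 in VSMCs and 240.0 in mcPCs. P2rx1 made up 43.7% of it in VSMCs and 0.185% in mcPCs, and P2ry14 made up 7.54% and 60.5%. The share of Adora2a was 33.2% in VSMCs and 31.3% in mcPCs. Grouped by type, P2X channels held 47.6% in VSMCs and 2.53% in mcPCs, P2Y receptors 15.1% and 61.0%, and adenosine receptors 37.4% and 36.4%. Grouped by coupling, Gq-coupled receptors held 7.52% in VSMCs and 0.517% in mcPCs, and Gi-coupled P2ry14 held more than all others together in mcPCs alone. The shares of adenosine receptor transcripts were thus close in both cell types, and the leading nucleotide receptor was P2rx1 in VSMCs and P2ry14 in mcPCs. In direct comparison, P2ry14 had 0.172 times the TPM of P2rx1 in VSMCs and 326.5 times in mcPCs.

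**Figure D3:**
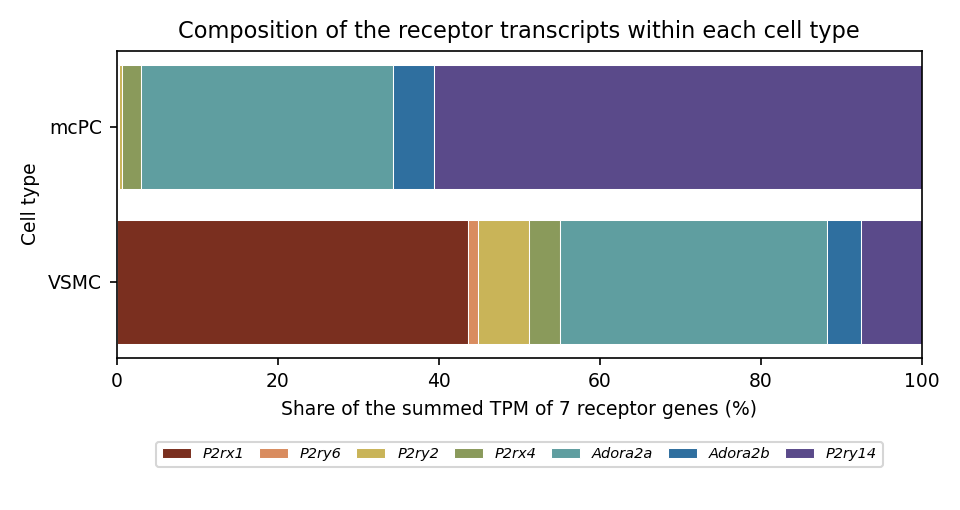
Share of each of the 7 receptor genes in their summed TPM (x axis, %) in mcPCs (upper bar) and VSMCs (lower bar), each bar adding up to the whole. P2rx1 takes 43.7% of the VSMC bar and is hardly visible in the mcPC bar (0.185%), P2ry14 takes 7.54% and 60.5%, and Adora2a takes about the same part of both (33.2% and 31.3%).

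How far the folds depended on scaling was examined on 6 scales. P2rx1, P2ry2 and P2ry6 were higher in VSMCs by at least 2-fold on each of them, with log2 ratios of -7.74 to -5.71 for P2rx1, -3.88 to -1.85 for P2ry2 and -3.50 to -1.47 for P2ry6. P2ry14 was higher in mcPCs by at least 2-fold on each, with log2 ratios of 2.85 to 4.87. By contrast, Adora2a ranged from -0.23 to 1.79, Adora2b from 0.14 to 2.16 and P2rx4 from -0.86 to 1.17, with the lowest value on the plain TPM scale each time. On the other 5 scales Adora2a and Adora2b were at least 2-fold higher in mcPCs.

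**Figure D4:**
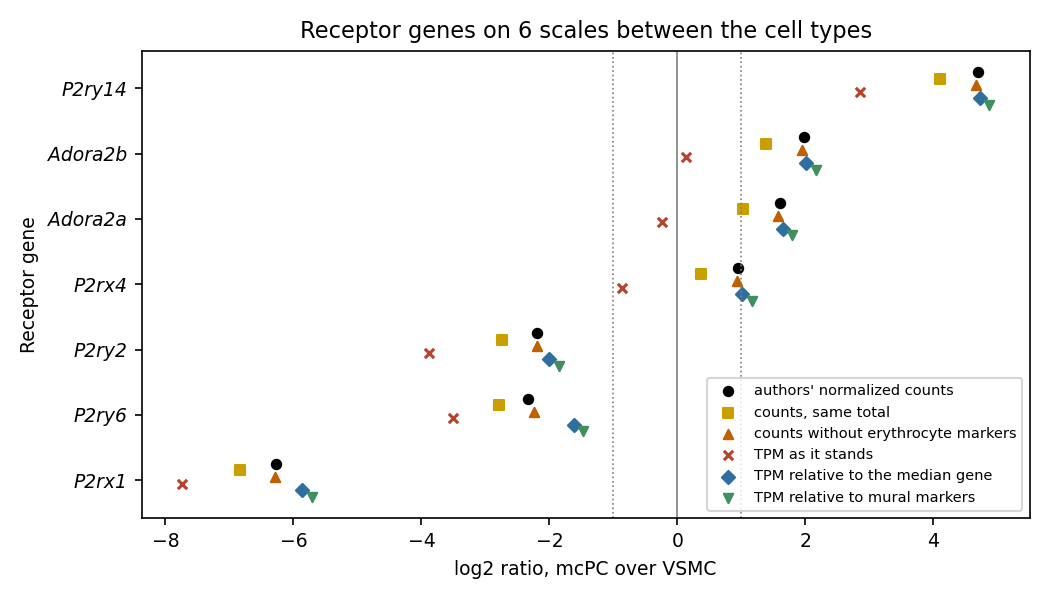
log2 ratio, mcPC over VSMC, of the 7 receptor genes on 6 scales (symbols), with the solid line at equal levels and the dotted lines at 2-fold. P2ry14 stays right of the dotted lines and P2rx1, P2ry2 and P2ry6 stay left of them, while the crosses for plain TPM put P2rx4 (-0.86), Adora2a (-0.23) and Adora2b (0.14) inside them.

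The other receptors of the families with a row were at most 4.92 TPM, the value of P2rx5 in VSMCs. There P2rx5 was above the chosen gene P2ry6 (3.13 TPM). Of the 5 other P2X subunits, 4 had a row and P2rx2 had none. P2rx5 was at 4.92 TPM in VSMCs and 0.405 TPM in mcPCs, a log2 ratio of normalized counts of -1.80. P2rx7, the channel known from microglia and macrophages, was at 0.105 and 0.360 TPM, a log2 ratio of 3.56. In VSMCs, P2rx7 was below 0.8 TPM, the limit under which the paper removed genes. The part of microglial RNA in the P2rx7 ratio was not tested. P2rx3 and P2rx6 were below 2-fold in either direction. P2ry4 was the only row among the 7 other P2Y and adenosine receptors, at 1.08 TPM in VSMCs and 0.339 TPM in mcPCs (log2 ratio 0.08). P2ry12 and P2ry13, which mark microglia, as well as P2ry10, P2ry10b, Adora3 and Gpr17 had no row. As for P2ry1 and Adora1, the absence of a row does not show that a gene was silent in either cell type. With the 7 chosen genes this makes 12 listed receptor genes, and the 5 additional ones bring the summed TPM to 273.3 in VSMCs and 241.3 in mcPCs.

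Genes that release, degrade and remove the ligands were described from lists of their own. Of all genes, 13.9% were at least 2-fold higher in VSMCs and 22.0% in mcPCs in normalized counts, and 72.3% and 7.0% with TPM as it stands, so that the counts on each scale are to be read beside these shares. Of 8 listed genes of nucleotide release, none was at least 2-fold higher in VSMCs and 4 were in mcPCs, whereas with TPM as it stands 1 was higher in mcPCs and 4 in VSMCs. For the whole list the median log2 ratio was 1.09 in normalized counts. Gja1, the hemichannel protein connexin 43, was at 0.125 TPM in VSMCs and 2.68 TPM in mcPCs (log2 ratio of normalized counts 6.29), and it is also an astrocyte marker. The 4 listed astrocyte markers, Gja1 among them, summed to 0.582 TPM in VSMCs and 15.7 TPM in mcPCs. Slc1a3 held most of the mcPC sum (0.306 and 12.7 TPM), whereas Gfap (0.0980 and 0.270 TPM) and Aqp4 (0.0539 and 0.0865 TPM) were low in both. In VSMCs, Gja1 was below 0.8 TPM, the limit under which the paper removed genes. The part of astrocyte RNA in the Gja1 ratio was not tested. Lrrc8a, a subunit of volume-regulated anion channels, was the most abundant release gene of both cell types at 36.3 and 51.7 TPM (log2 ratio 2.34). Panx1, an ATP-releasing channel, was at 5.66 and 1.46 TPM and differed little in normalized counts (log2 ratio -0.05).

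Of 10 listed genes of nucleotide hydrolysis, 1 was at least 2-fold higher in VSMCs and 7 in mcPCs (13.9% and 22.0% of all genes), against 2 and 3 with TPM as it stands (72.3% and 7.0% of all genes). The median log2 ratio of the list was 1.90 in normalized counts. The exception was Entpd1, the ectonucleotidase CD39 that degrades ATP and ADP to AMP, at 181 TPM in VSMCs and 5.86 TPM in mcPCs (log2 ratio -3.12). It made up most of the summed TPM of the list in VSMCs, 198.9, against 28.5 in mcPCs. Cd38, which degrades NAD, was the most abundant gene of the list in mcPCs, at 8.27 TPM against 0.869 TPM in VSMCs (log2 ratio 5.05). Enpp3 had the highest ratio (6.16) but only 3 reads per VSMC sample, at 0.0267 and 0.535 TPM. Nt5e, which was chosen after its values were seen because it encodes the enzyme that makes adenosine from AMP, was at 0.579 and 3.87 TPM (log2 ratio 4.54). Entpd1 and Nt5e, which act one after the other on the way from ATP to adenosine, thus lay on opposite sides. Entpd2, Enpp1 and Alpl of the same list, also chosen after their values were seen, were higher in mcPCs (log2 ratios 2.31, 1.48 and 2.47). The pair therefore does not stand for the whole list. The paper removed genes below 0.8 TPM in VSMCs, an empirical limit chosen in view of transcripts of unwanted cells. Nt5e and Enpp3 were below this limit, and Cd38 was just above it. The leukocyte marker Ptprc was at 0.0659 TPM in VSMCs and 15.1 TPM in mcPCs. The part of leukocyte or other cells' RNA in the ratios of Nt5e, Enpp3 and Cd38 was not tested.

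Of 6 listed genes of adenosine uptake and breakdown, 3 were at least 2-fold higher in mcPCs and none in VSMCs (22.0% and 13.9% of all genes), against 2 and 3 with TPM as it stands (7.0% and 72.3% of all genes). The median log2 ratio of the list was 1.5 in normalized counts. Erythrocyte transcripts took 54.9% of the TPM of mcPCs and 0.728% of that of VSMCs. The part of erythrocyte RNA in the values of this list was not tested. Adk, the kinase that returns adenosine to AMP, was at 20.2 TPM in VSMCs and 49.6 TPM in mcPCs (log2 ratio 3.13). Slc29a4, a transporter of adenosine and monoamines, was at 0.0754 and 0.905 TPM (log2 ratio 5.41), with 7 reads per VSMC sample. It was thus below the paper's limit of 0.8 TPM in VSMCs. Pnp, which breaks down inosine, was the most abundant of the list in VSMCs at 59.1 TPM against 27.0 TPM in mcPCs, with a log2 ratio of normalized counts of 0.66, and Slc29a3 was at 6.37 and 1.91 TPM (log2 ratio 0.09). The 10 G alpha subunit genes, which couple the receptors, had 11 rows because Gnas is listed 2 times. Of these rows, 9 were within 2-fold in normalized counts, 1 was higher in VSMCs and 1 in mcPCs (13.9% and 22.0% of all genes). By contrast, 10 were at least 2-fold higher in VSMCs with TPM as it stands (72.3% of all genes). With counts scaled to the same total, 5 were (28.8% of all genes). Gnas (ENSRNOG00000047374), the Gs subunit, was the most abundant at 860 TPM in VSMCs and 257 TPM in mcPCs (log2 ratio 0.10). The exceptions were Gnai1, a Gi subunit, at 82.9 and 7.34 TPM (log2 ratio -1.69), and Gna14, of the Gq family, at 0.177 and 0.180 TPM (log2 ratio 1.78). Gna14 had only 19.0 reads per VSMC sample and 34.3 per mcPC sample.

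**Figure D5:**
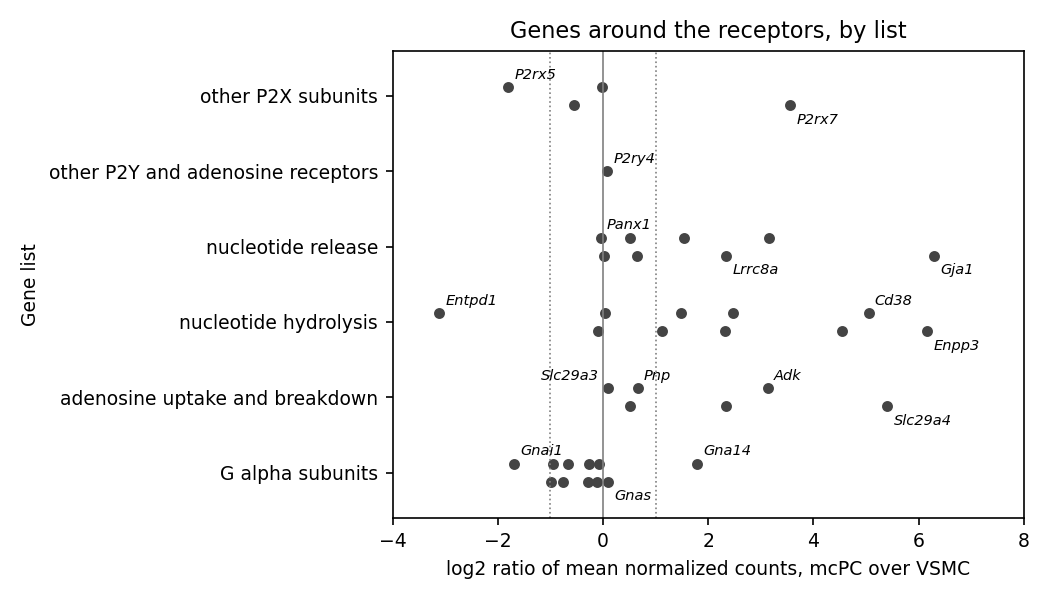
log2 ratio of mean normalized counts, mcPC over VSMC, for each listed gene of 6 lists around the receptors, with genes chosen by rule named, the solid line at equal levels and the dotted lines at 2-fold. Entpd1 (-3.12) stands alone on the left of its list, Gja1, Enpp3, Slc29a4 and Cd38 lie beyond 5 on the right, and 9 of the 11 G alpha points lie within 2-fold.

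Genes whose means lay nearest to those of the extreme receptors were sought by distance in log2 TPM over the 2 means. Nearest to P2rx1 were Chmp4c (distance 0.062), LOC100910418 (0.19) and Mrgprf (0.39), the first at 121.5 TPM in VSMCs and 0.449 TPM in mcPCs. Nearest to P2ry14 were AABR07028488.1 (0.38), Htra3 (0.50) and Mkrn1 (0.55), with Htra3 at 22.5 and 202.1 TPM. Nearness in 2 means is a description of levels only.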

How the data were processed

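Polyadenylated RNA of 6 samples, 3 of VSMCs and 3 of mcPCs, was sequenced in 4 runs per library. The authors trimmed and filtered the reads, estimated abundances and counts with Salmon 0.8.0 against Ensembl transcripts of Rnor_6.0, added them up by gene and normalized the counts with DESeq2. A gene entered the table when each sample had at least 1 read of it. The deposited table holds, for each gene, the authors' mean TPM, the authors' mean estimated counts, the authors' mean effective length and the authors' mean normalized counts (signal values) of each cell type. Columns of the authors' own comparison (log2 fold change, its standard error, p-values and adjusted p-values, and a mean over all samples) were not used. With means per cell type and no values per sample analysed here, no test was run.

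Estimated counts were taken as means per run, since 64.4% of those of VSMCs and 67.2% of those of mcPCs are whole when multiplied by 12 runs (within 0.001 read). Reads per sample are 4 times the mean. Ratios are log2 of the authors' mean normalized counts. 95% counting intervals of levels are exact Poisson intervals and those of ratios exact conditional intervals of 2 counts of reads, both from pooled reads that carry no molecular identifiers. TPM ratios used a pseudocount of 0.1. A 2-fold difference was the limit for counting a gene. Alternatives were TPM as it stands, TPM relative to the median gene with at least 0.8 TPM in VSMCs, counts scaled to the same total with and without erythrocyte markers, a pseudocount of 1, a 4-fold limit, a filter of 0.8 TPM, other denominators of the shares and, added after seeing the data, TPM relative to the median of 5 mural cell markers.

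The 9 receptors and the gene lists were chosen with earlier results of these data known. Named genes are the 9 receptors, the genes of each list with the highest TPM in either cell type and, given at least 10 reads per sample in either, the highest or lowest ratio, and the 3 genes nearest to the receptors with the extreme ratios. Promoter sequences are from RefSeq GRCr8, matched by symbol. Platelet, neuron, oligodendrocyte and fibroblast markers summed to 6.49, 0.823, 6.62 and 138 TPM in VSMCs and 4.32, 19.9, 5.20 and 54.3 TPM in mcPCs, mural cell markers to 10619 and 2598 TPM, and endothelial markers to 9.97 and 23.2 TPM. The ratios of reads and their counting intervals were tried on simulated reads with counting error only, scaled on genes known to be unchanged. The authors' normalization and the spread between isolations were not part of that trial. Versions were scipy 1.17.1, numpy 2.4.6, pandas 2.3.3 and matplotlib 3.10.9 on Python 3.11.15.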

Additional observations from a re-analysis of the deposited data

How the results depend on the processing

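No paired analysis was possible because the table gives only the mean of each cell type, and for the same reason no isolation was left out in turn. The number of receptor genes at least 2-fold higher in VSMCs was 3 under every alternative run. The share of all genes at least 2-fold higher in VSMCs ranged from 9.34% to 72.3% over the scales. The number at least 2-fold higher in mcPCs was 1 with TPM as it stands (7.0% of all genes). It was 4 with TPM relative to the median gene (25.1% of all genes) or to the mural cell markers (28.3%), where P2rx4 passed the limit. With a 4-fold limit it was 1, and the share of all genes at that limit was not computed. With TPM as it stands the ratio changed sign for P2rx4 (-0.86), for Adora2a (-0.23) and for the median of the 7 genes (-0.86). On that scale the median of all genes was -1.72 and 72.3% of genes were at least 2-fold higher in VSMCs. The median of the 7 genes was 0.37 with counts scaled to the same total, where that of all genes was -0.55, and 1.17 relative to the mural cell markers, an alternative chosen after seeing the data, where that of all genes was 0.31. Over the summed TPM of all 12 listed receptor genes, the share of P2rx1 in VSMCs was 42.6%, that of P2ry14 in mcPCs 60.2% and that of Adora2a in VSMCs 32.3%. The 3 samples of a cell type, whose spread is not known from means, limit the precision, and for P2ry6 in mcPCs also by depth, with 32.4 reads per sample.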
